A study of Mus musculus with 4 samples.

Results

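The VEGF and angiopoietin systems were followed here through 10 genes of the 32285 in the count tables, 4 VEGF family ligands (*Vegfa*, *Vegfb*, *Vegfc* and *Pgf*), their 3 receptors (*Flt1*, *Kdr* and *Flt4*), 2 angiopoietins (*Angpt1* and *Angpt2*) and the angiopoietin receptor *Tek*. They were taken by name from the feature list. All 10 were detected, with between 4338 UMIs (*Flt4*) and 48988 UMIs (*Flt1*) in the cells kept. Callus cells came from fractures of wild-type C57BL/6J mice that were 3 months old, either injected with K/BxN serum, which causes arthritis (RA), or with Vehicle (control), at 4 or 7 days postfracture (dpf). Each of the 4 groups (control_4d, RA_4d, control_7d and RA_7d) was 1 droplet library made from 1 pool of mice, and the sources give different numbers of mice in a pool. A UMI is the tag of 1 captured mRNA molecule. Levels are given as the UMIs of a gene in 1000000 UMIs (CPM), summed over the cells of a type in a library, and every interval is a 95% interval for counting error only. With 1 library a group there was no replicate, no test was made, and a difference between the groups cannot be told apart from a difference between pools or preparations.

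VEGF-A binds the receptors VEGFR1 (*Flt1*) and VEGFR2 (*Kdr*) on blood vessels, where VEGFR2 carries most of the growth signal and VEGFR1 holds ligand back as a decoy. Placental growth factor (*Pgf*) and VEGF-B bind VEGFR1, and VEGF-C acts through VEGFR3 (*Flt4*), the receptor that lymphatic vessels depend on. Angiopoietin 1 from perivascular and mesenchymal cells activates Tie2 (*Tek*) and steadies vessels, whereas angiopoietin 2 from endothelial cells counteracts it in blood vessels. New vessels that enter the callus are needed for cartilage to be replaced by bone.

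The receptors set which cells can respond to the ligands, so the 300 bases around the start sites of their genes (250 before and 50 after) are given below from RefSeq on GRCm38.p6, 5′ to 3′ on the strand of the gene. Capitals mark GGAA or its reverse complement TTCC, the core that ETS factors recognise, searched on both strands. RefSeq promoters were found for 8 of the 10 genes.

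*Flt1*, chr5:147725962-147726261, minus strand: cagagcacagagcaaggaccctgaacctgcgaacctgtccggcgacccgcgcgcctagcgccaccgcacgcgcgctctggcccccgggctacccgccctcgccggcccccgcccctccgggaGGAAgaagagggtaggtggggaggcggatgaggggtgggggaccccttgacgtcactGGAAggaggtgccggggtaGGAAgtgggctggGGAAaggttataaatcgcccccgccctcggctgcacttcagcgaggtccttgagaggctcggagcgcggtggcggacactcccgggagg
*Kdr*, chr5:75978406-75978705, minus strand: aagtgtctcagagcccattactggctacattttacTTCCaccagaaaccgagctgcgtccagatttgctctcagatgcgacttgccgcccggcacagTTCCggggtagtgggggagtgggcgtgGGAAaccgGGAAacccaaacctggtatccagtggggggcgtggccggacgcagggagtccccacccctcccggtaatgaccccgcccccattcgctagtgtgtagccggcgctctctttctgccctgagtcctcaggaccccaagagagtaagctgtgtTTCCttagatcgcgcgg
*Flt4*, chr11:49609429-49609728, plus strand: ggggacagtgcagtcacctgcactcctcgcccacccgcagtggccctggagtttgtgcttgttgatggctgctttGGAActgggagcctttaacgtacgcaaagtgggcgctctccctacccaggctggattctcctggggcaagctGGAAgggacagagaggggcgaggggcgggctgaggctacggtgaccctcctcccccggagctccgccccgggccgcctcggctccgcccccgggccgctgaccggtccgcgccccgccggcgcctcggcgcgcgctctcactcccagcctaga
*Tek*, chr4:94739039-94739338, plus strand: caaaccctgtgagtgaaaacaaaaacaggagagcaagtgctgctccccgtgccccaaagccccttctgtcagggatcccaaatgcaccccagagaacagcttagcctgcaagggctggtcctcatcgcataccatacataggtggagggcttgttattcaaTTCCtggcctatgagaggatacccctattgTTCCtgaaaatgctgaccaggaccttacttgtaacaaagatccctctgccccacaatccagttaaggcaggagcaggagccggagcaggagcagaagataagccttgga

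The core occurred 4 times in the *Flt1* window, 5 times in *Kdr*, 2 times in *Flt4* and 2 times in *Tek*. It is a short motif that 95.98% of 32851 mouse promoters of this length carry, with a median of 3 matches, so its presence did not set the receptor promoters apart. The *Flt1* window also held TGACGTCA, a cAMP response element found in 1.79% of promoters, and the TATA box TATAAA, found in 13.62%. The GATA core AGATAA occurred in the *Tek* window and in 11.18% of promoters. These are matches of letters, and binding was not measured.

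Kept cells numbered 4110 to 8223 a library (25479 of 34038 barcodes), with a median depth of 16094 to 17632 UMIs, and 5 to 15 barcodes were shared by any 2 libraries. They fell into 21 clusters, of which a marker list named 20 as 17 cell types and left 1 of 142 cells unnamed. The 10 genes were left out of the genes used for clustering. Blood endothelial-like cells (3053 cells) had a summed level of 4234 to 4483 CPM for the 6 blood endothelial markers in each library, and lymphatic endothelial-like cells (308 cells, 31 in the smallest library) had *Prox1* at 1079 CPM and *Lyve1* at 990 CPM against 10.4 and 1.38 CPM in blood endothelial-like cells. The lymphatic marker *Ccl21a*, summed over the 2 rows that carry its symbol, was at 8577 CPM in lymphatic endothelial-like cells and 0.607 CPM in blood endothelial-like cells. The chondrogenic-like class held 9 cells in control_4d and 12 in RA_4d, so its levels at 4 dpf are not read below.

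**Figure D1:**
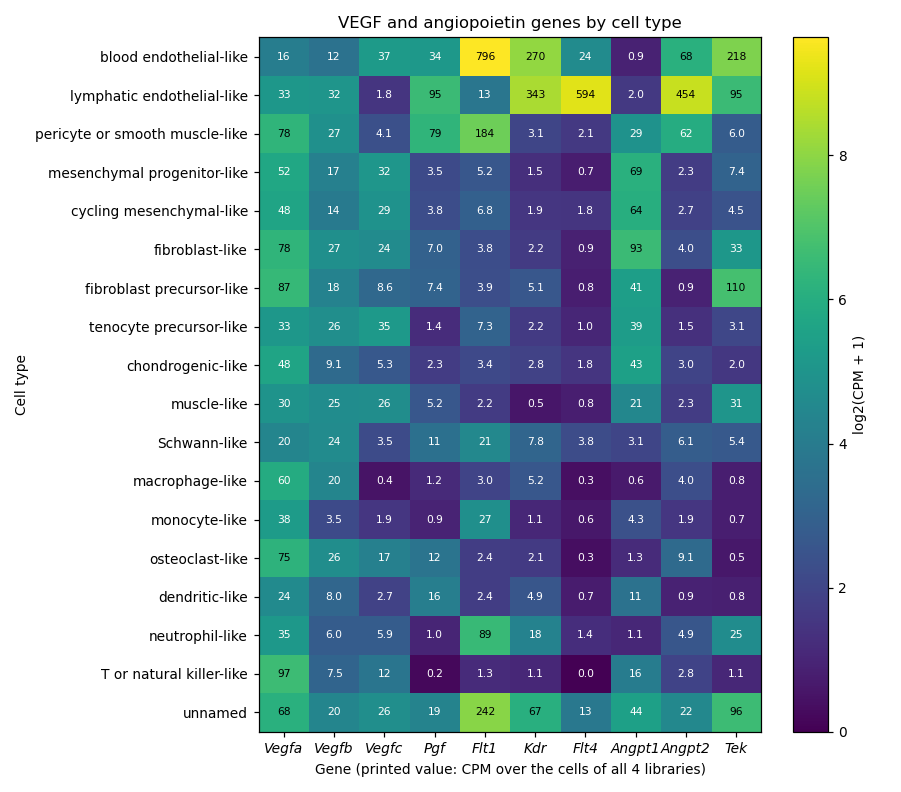
Heat map of the 10 genes (columns) in each cell type (rows). Colour is log2(CPM + 1) and the printed value is CPM over the cells of all 4 libraries, so that *Flt1* reads 796 in blood endothelial-like cells and *Flt4* reads 594 in lymphatic endothelial-like cells.

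*Vegfa*, the main growth factor for blood vessels, was spread over immune and mesenchymal cells. Over all libraries it stood at 97.2 CPM in T or natural killer-like cells, 87.1 CPM in fibroblast precursor-like, 78.1 CPM in pericyte or smooth muscle-like, 77.8 CPM in fibroblast-like and 74.6 CPM in osteoclast-like cells. The ranges over the 4 libraries overlapped between all neighbours in this order. Blood endothelial-like cells, which carry its receptors, were far lower as a class at 16.0 CPM. Their subtypes, described below, differed. Arterial-like cells (183 cells) had 107 CPM over all libraries and 61.5 to 133 CPM in single libraries. Venular-like cells had 10.8 CPM and tip-like cells 7.99 CPM over all libraries.

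The macrophage-like class held 3 clusters that differed in *Vegfa*. In the cluster led by *Arg1* and *Spp1* it was 107 CPM in control_4d, 71.8 CPM in RA_4d, 98.3 CPM in control_7d and 117 CPM in RA_7d. In the cluster led by MHC class II genes it was 32.1 CPM, 37.6 CPM, 37.4 CPM and 30.4 CPM in the same order, and in the cluster led by *Ccl8* and *Mrc1* 15.5 CPM, 14.3 CPM, 39.5 CPM and 18.8 CPM. The first cluster was the highest of the 3 in every library. The top 10 genes of the MHC class II cluster held 0 macrophage markers and 1 each of monocytes (*Ccr2*) and dendritic cells (*H2-Ab1*). The level of the class as a whole is therefore not compared between groups. In the shares of ligand UMIs below it enters as part of the myeloid cells, which also hold the monocyte-like and dendritic-like classes.

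The cells that carried the *Vegfa* UMIs shifted with time. Myeloid cells (here the macrophage-like, monocyte-like, dendritic-like and osteoclast-like classes) held 56.2% of them in control_4d and 44.1% in RA_4d, against 28.0% in control_7d and 10.4% in RA_7d. Mesenchymal cells (the 6 progenitor, cycling, fibroblast, fibroblast precursor, tenocyte precursor and chondrogenic classes together) went the other way, with 32.8%, 38.6%, 60.2% and 74.7%. The level over all cells of a library moved little, between 51.5 CPM in control_7d and 61.7 CPM in RA_7d. Neutrophil-like cells were counted apart from the myeloid cells and held 0.62% of the *Vegfa* UMIs in control_4d, 4.52% in RA_4d, 0.64% in control_7d and 0.36% in RA_7d. All these shares follow both the level in a cell and the number of cells of each kind that were captured.

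In fibroblast-like cells *Vegfa* was 87.2 CPM in control_4d, 83.0 CPM in RA_4d, 54.9 CPM in control_7d and 88.0 CPM in RA_7d. Control_7d was the low library, and the RA-to-control ratio at 7 dpf was 1.60 (1.5 to 1.71) against 0.95 (0.86 to 1.05) at 4 dpf. Dendritic-like cells had more *Vegfa* in RA at both times, at 40.7 CPM in RA_4d against 17.4 CPM in control_4d and 23.0 CPM in RA_7d against 11.5 CPM in control_7d. This class of 948 cells scored 3.21 for dendritic and 1.75 for mast cell markers. At the finer resolution of 1 a separate cluster of 83 cells was named mast. Whether the mix of cells in the class differed between libraries was not tested.

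*Vegfb*, a VEGFR1 ligand, ranged over the named classes from 3.52 CPM in monocyte-like cells to 31.5 CPM. Its highest levels over all libraries were 31.5 CPM in lymphatic endothelial-like, 27.4 CPM in pericyte or smooth muscle-like and 27.0 CPM in fibroblast-like cells, and each overlapped its neighbour in range. In fibroblast-like cells the RA libraries stood above both controls, at 32.5 CPM in RA_4d and 29.4 CPM in RA_7d against 22.6 CPM in both control libraries.

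*Vegfc*, the lymphatic growth factor, was highest in blood endothelial-like cells (37.0 CPM), tenocyte precursor-like cells (35.1 CPM) and mesenchymal progenitor-like cells (32.2 CPM), with overlapping ranges. Cycling mesenchymal-like (28.8 CPM), muscle-like (25.7 CPM), fibroblast-like (24.2 CPM) and osteoclast-like cells (17.3 CPM) were the next named classes. Macrophage-like cells had 0.4 CPM and lymphatic endothelial-like cells, which carry the receptor, 1.8 CPM. Myeloid cells together held 11.6% of the *Vegfc* UMIs in control_4d, 18.3% in RA_4d, 3.13% in control_7d and 0.64% in RA_7d. Mesenchymal cells held 45.4%, 55.1%, 69.4% and 70.6% in the same order. Within the blood endothelium *Vegfc* was an arterial-like gene, with 269 CPM in control_4d, 151 CPM in RA_4d, 300 CPM in control_7d and 325 CPM in RA_7d in that subtype (183 cells). Venular-like cells had 29.1 to 47.5 CPM and tip-like cells 4.71 to 11.5 CPM.

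In mesenchymal progenitor-like cells *Vegfc* was 20.4 CPM in control_4d, 39.4 CPM in RA_4d, 29.9 CPM in control_7d and 36.3 CPM in RA_7d. RA was above control at both times, with ratios of 1.93 (1.61 to 2.32) and 1.21 (1.11 to 1.33). In fibroblast precursor-like cells it was 3.2 CPM in control_4d, 18.8 CPM in RA_4d, 16.2 CPM in control_7d and 5.7 CPM in RA_7d, so that RA was the higher library at 4 dpf and the lower at 7 dpf. The 4 dpf values rest on 20 UMIs in control_4d and 42 UMIs in RA_4d.

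*Pgf*, the placental growth factor, had its highest levels in vessel-associated cells. It was 94.6 CPM in lymphatic endothelial-like, 79.0 CPM in pericyte or smooth muscle-like and 34.3 CPM in blood endothelial-like cells over all libraries. The pericyte class exceeded the blood endothelial class in the range over libraries, and its own range overlapped that of the lymphatic class. Dendritic-like cells followed with 16.3 CPM and osteoclast-like cells with 12.0 CPM, while mesenchymal progenitor-like cells had 3.5 CPM and macrophage-like cells 1.2 CPM. By share of UMIs, myeloid cells held 24.9% of *Pgf* in control_4d, 36.0% in RA_4d, 3.79% in control_7d and 1.59% in RA_7d, and blood endothelial-like cells 40.9%, 29.7%, 43.7% and 24.6%. In RA_4d more *Pgf* UMIs thus lay in myeloid than in blood endothelial-like cells. Mesenchymal cells, despite their low level, held 11.4%, 10.2%, 23.3% and 34.2% in the same order. In RA_7d that was the largest share, above blood endothelial-like and pericyte or smooth muscle-like cells (23.2%).

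Blood endothelial-like cells had 25.8 CPM of *Pgf* in control_4d, 24.2 CPM in RA_4d, 64.9 CPM in control_7d and 24.0 CPM in RA_7d. Control_7d stood alone and the other 3 libraries lay within 2 CPM of each other. The ratio of 7 to 4 dpf was 2.51 (2.22 to 2.85) in control and 0.99 (0.84 to 1.17) in RA, and the RA-to-control ratio was 0.94 (0.80 to 1.11) at 4 dpf and 0.37 (0.33 to 0.42) at 7 dpf. The share of blood endothelial-like cells with a *Pgf* UMI, with each cell thinned to 4000 UMIs, was 4.58%, 6.29%, 11.2% and 4.79% in the same order of libraries. In macrophage-like cells, taken as the background from free RNA, it was 0.23% to 0.39%. Without thinning it was 13.0%, 14.97%, 18.7% and 10.3% at median depths of 13883 to 20737 UMIs.

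Clustering of the blood endothelial-like cells alone separated tip-like cells (440 cells), which lead vessel sprouts, from venular-like (1091), cycling-like (244) and arterial-like cells (183). The other cells stayed unnamed, in clusters of 478, 423, 164 and 30 cells, and the one of 164 was led by macrophage genes, with 65.2% of its cells called doublets. *Pgf* was among the leading genes of the tip-like cluster, with 115 CPM in control_4d, 84.3 CPM in RA_4d, 193 CPM in control_7d and 115 CPM in RA_7d. Cycling-like cells had 16.4 CPM, 14.1 CPM, 110 CPM and 20.2 CPM in the same order, and venular-like cells stayed near 1 CPM. Arterial-like cells had 28.4 CPM, 13.3 CPM, 31.9 CPM and 19.2 CPM, and the unnamed cluster of 478 cells 11.6 CPM, 18.4 CPM, 40.1 CPM and 34.0 CPM. Control_7d was the highest library in each of these 4 groups, by the most in cycling-like and tip-like cells, where its counting interval was clear of the others. In arterial-like cells that interval overlapped those of all other libraries, and in the unnamed cluster that of RA_7d. Tip-like cells made up 11.9% of the blood endothelial-like cells in control_4d, 16.5% in RA_4d, 16.7% in control_7d and 13.3% in RA_7d. Venular-like cells made up 34.8%, 37.5%, 28.2% and 41.2% in the same order, and cycling-like cells 12.4%, 10.8%, 9.16% and 3.34%.

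In the lymphatic and pericyte classes *Pgf* followed this pattern only in part, and control_7d did not stand alone. Lymphatic endothelial-like cells had more at 7 dpf in both conditions, with 60.4 CPM in control_4d, 27.9 CPM in RA_4d, 123 CPM in control_7d and 103 CPM in RA_7d. Their 4 dpf values rest on 26 UMIs in control_4d and 18 UMIs in RA_4d. Pericyte or smooth muscle-like cells had 70.2 CPM, 114 CPM, 90.6 CPM and 66.6 CPM, with RA above control at 4 dpf and below it at 7 dpf. As in blood endothelial-like cells, the level in both classes was higher at 7 than at 4 dpf in control. It was also lower in RA than in control at 7 dpf. In lymphatic endothelial-like cells these 7 dpf values rest on 176 UMIs in control_7d and 200 UMIs in RA_7d, and their counting intervals overlapped.

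**Figure D2:**
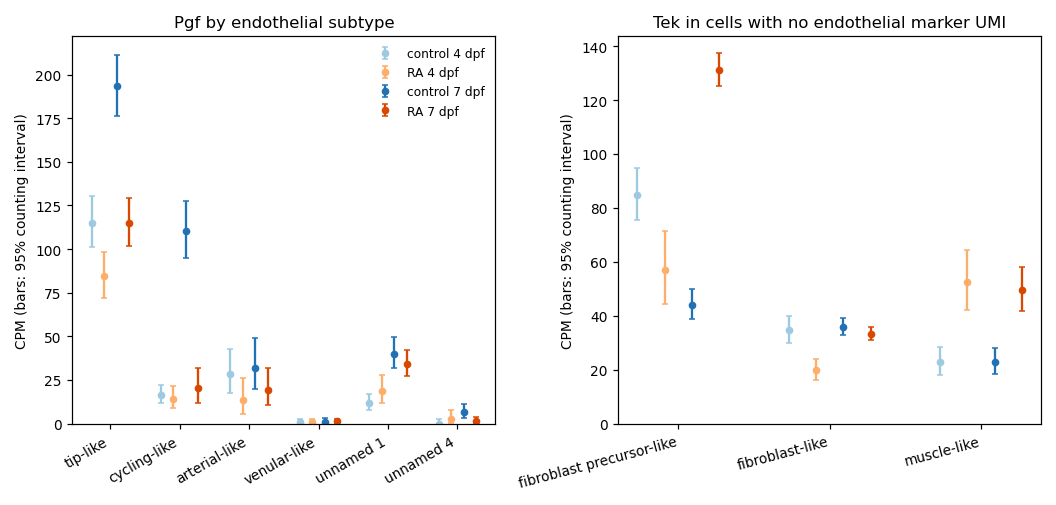
Left, *Pgf* level in CPM (vertical axis) in 6 endothelial subtypes, coloured by library. Right, *Tek* level in CPM in the cells of 3 types outside the endothelium that had no UMI of any blood endothelial marker. Points are single libraries and bars are 95% counting intervals. Control_7d reads 193 CPM for *Pgf* in tip-like cells, and RA_7d reads 131 CPM for *Tek* in fibroblast precursor-like cells.

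*Flt1*, which encodes VEGFR1, was a blood endothelial gene. Blood endothelial-like cells had 771 CPM in control_4d, 853 CPM in RA_4d, 715 CPM in control_7d and 847 CPM in RA_7d. Both RA libraries were above both controls, by 1.11 (1.08 to 1.14) at 4 dpf and 1.18 (1.15 to 1.22) at 7 dpf. Among subtypes it was 1032 to 1370 CPM in arterial-like cells and 508 to 646 CPM in tip-like cells, and these ranges did not overlap. Venular-like cells were higher in RA at both times. At 4 dpf RA was lower in tip-like (611 against 646 CPM) and cycling-like cells (578 against 604 CPM), with overlapping counting intervals in both. At 7 dpf RA was lower in arterial-like cells (1032 against 1197 CPM). Each of these 3 was higher in RA at the other time, in tip-like cells with overlapping intervals. The unnamed clusters of 478, 423 and 164 cells were higher in RA at both times. The one of 30 cells was lower in RA at 4 dpf and higher at 7 dpf. The class ratios of the receptors carry both the levels within subtypes and the mix of subtypes. Lymphatic endothelial-like cells had 12.6 CPM over all libraries.

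Pericyte or smooth muscle-like cells also carried *Flt1*, at 217 CPM in control_4d, 143 CPM in RA_4d, 169 CPM in control_7d and 190 CPM in RA_7d. Their summed level of the 6 blood endothelial markers was 212 to 270 CPM, of which *Esam* made up much, and *Cdh5*, the endothelial cadherin, was at 6.5 to 27.7 CPM. In the 138 pericyte or smooth muscle-like cells with no UMI of any of the 6 markers *Flt1* was 202 CPM (182 to 224), against 184 CPM over all 830 cells.

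*Flt1* was also read in neutrophil-like cells. It was 95.6 CPM in control_4d, 50.5 CPM in RA_4d, 145 CPM in control_7d and 236 CPM in RA_7d, in 38 to 214 cells. *Cdh5* followed the same order of libraries, at 102 CPM, 39.6 CPM, 167 CPM and 214 CPM. In the 197 neutrophil-like cells without an endothelial marker UMI *Flt1* was 7.02 CPM (4.80 to 9.91) and *Tek* 1.10 CPM, against 89.4 CPM and 24.96 CPM over all 365 cells. In monocyte-like cells without such a UMI *Flt1* was 21.6 CPM (17.3 to 26.6), against 27.2 CPM over all of them.

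*Kdr*, which encodes VEGFR2, was shared by both endothelial classes. Lymphatic endothelial-like cells had 339 CPM in control_4d, 322 CPM in RA_4d, 317 CPM in control_7d and 370 CPM in RA_7d. Blood endothelial-like cells had 256 CPM, 285 CPM, 290 CPM and 259 CPM in the same order, below the lymphatic class in every library. The spread over libraries in blood endothelial-like cells was narrow, with RA-to-control ratios of 1.11 (1.06 to 1.17) at 4 dpf and 0.89 (0.85 to 0.93) at 7 dpf. Among the named subtypes *Kdr* was lowest in arterial-like cells at 92.2 to 144 CPM, with tip-like cells at 276 to 386 CPM.

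*Flt4*, which encodes VEGFR3, was a lymphatic gene. Lymphatic endothelial-like cells had 643 CPM in control_4d, 552 CPM in RA_4d, 521 CPM in control_7d and 651 CPM in RA_7d. Blood endothelial-like cells had 23.2 CPM, 30.96 CPM, 27.4 CPM and 19.1 CPM, and every other named class 3.8 CPM or less over all libraries. Because blood endothelial-like cells were more numerous, they still held 51.4% of the *Flt4* UMIs in control_4d, and this share was 44.8% in RA_4d, 28.1% in control_7d and 18.6% in RA_7d. Tip-like cells had 78.6 CPM in RA_4d and 33.4 to 47.1 CPM in the other libraries, and venular-like cells 7.3 to 9.3 CPM. Arterial-like cells had 31.9 to 49.0 CPM and cycling-like cells 27.6 to 35.9 CPM. The arterial-like level was above the tip-like level in control_4d and RA_7d and below it in RA_4d and control_7d.

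**Figure D3:**
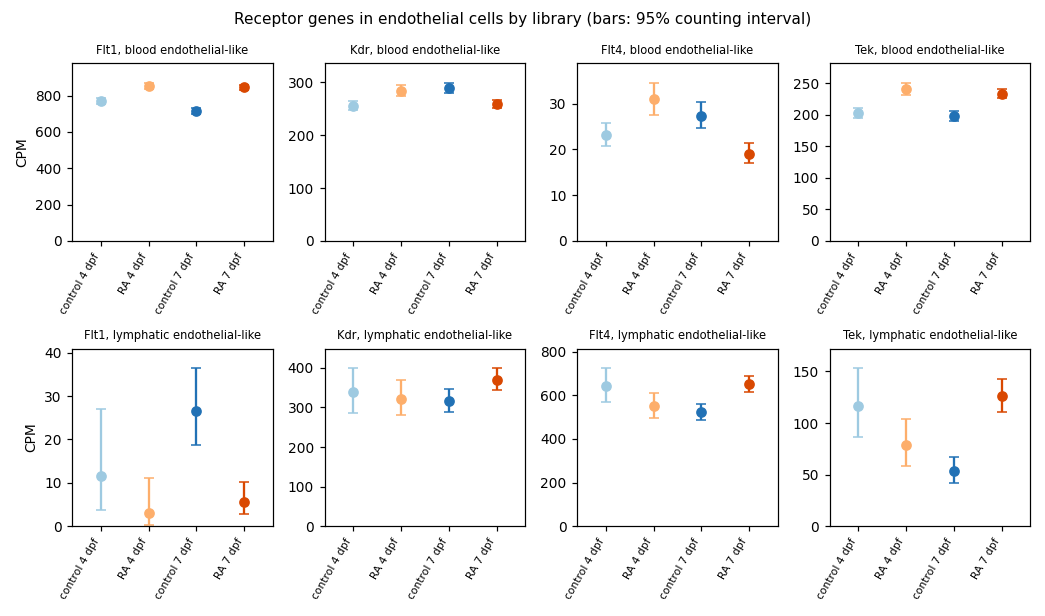
*Flt1*, *Kdr*, *Flt4* and *Tek* in CPM (vertical axes, each from 0) in blood endothelial-like cells (top) and lymphatic endothelial-like cells (bottom) of the 4 libraries. Bars are 95% counting intervals. *Flt1* and *Tek* in blood endothelial-like cells are higher in both RA libraries than in both controls, while *Kdr* and *Flt4* cross between 4 and 7 dpf.

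*Angpt1*, the Tie2 agonist, was a mesenchymal gene. Fibroblast-like cells had 82.8 CPM in control_4d, 85.5 CPM in RA_4d, 90.8 CPM in control_7d and 99.3 CPM in RA_7d, a narrow spread. Mesenchymal progenitor-like cells had 70.1 CPM, 98.9 CPM, 58.4 CPM and 69.4 CPM. They were higher in RA than in control at both times, by 1.41 (1.27 to 1.56) and 1.19 (1.11 to 1.27), and lower at 7 than at 4 dpf in both conditions. Mesenchymal cells held 88.4% to 94.4% of the *Angpt1* UMIs of a library. Blood endothelial-like cells had 0.9 CPM over all libraries, and the share of them with a UMI in thinned cells was 0.15% to 0.81%, against 0.24% to 0.38% of macrophage-like cells. Of the 49 UMIs 24 were in the 183 arterial-like cells, which had 8.52 CPM (5.46 to 12.7) over all libraries and 19.2 CPM in RA_7d. *Gm17473* overlaps *Angpt1* on the opposite strand, and the 3′ chemistry keeps strand.

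*Angpt2*, which opposes *Angpt1* at Tie2 in blood vessels, was endothelial and perivascular. Lymphatic endothelial-like cells had 302 CPM in control_4d, 614 CPM in RA_4d, 427 CPM in control_7d and 454 CPM in RA_7d. RA_4d was the high library, at a ratio of 2.03 (1.66 to 2.50) to control_4d, the low one, and both libraries of 7 dpf lay between them. These 4 dpf values come from 31 and 34 cells. Blood endothelial-like cells had 63.3 CPM, 58.4 CPM, 83.9 CPM and 66.4 CPM, and pericyte or smooth muscle-like cells 79.4 CPM, 61.8 CPM, 69.9 CPM and 50.6 CPM, with overlapping ranges. Within the blood endothelium tip-like cells had 137 to 159 CPM and arterial-like cells 14.9 CPM or less. *Mcph1* overlaps *Angpt2* on the opposite strand.

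**Figure D4:**
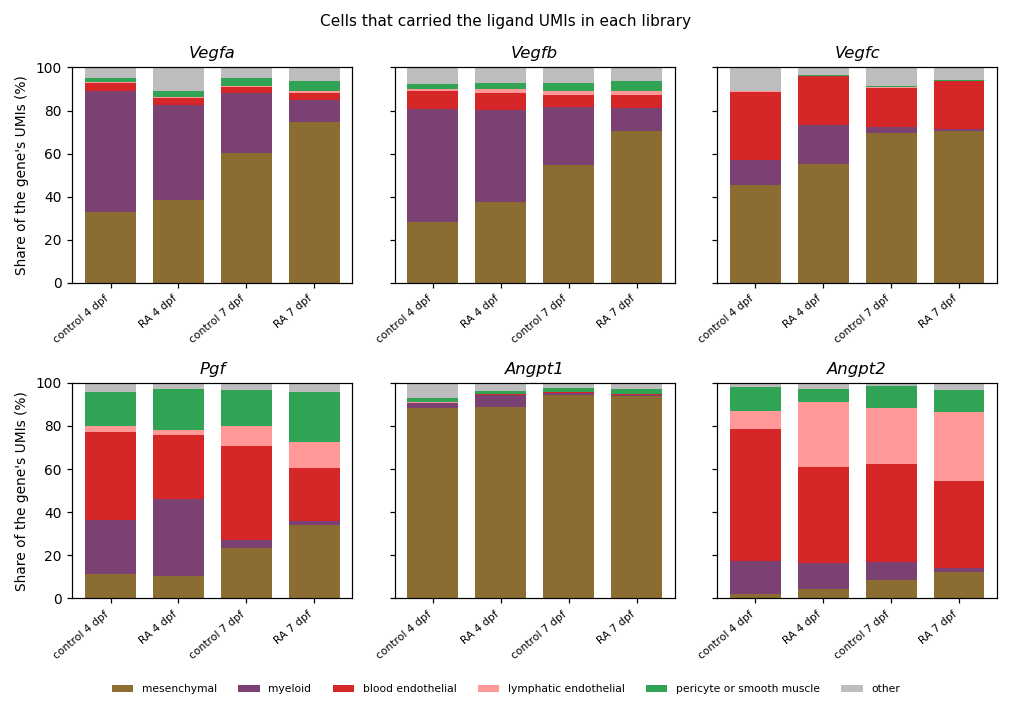
Share of the UMIs of 6 ligand genes (vertical axis, %) that came from each group of cells in each library, as stacked bars that add up to 100%. For *Vegfa* the myeloid share falls from 56.2% in control_4d to 28.0% in control_7d and 10.4% in RA_7d, while *Angpt1* is mesenchymal in all 4 libraries.

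*Tek*, which encodes Tie2, was highest in blood endothelial-like cells, at 203 CPM in control_4d, 241 CPM in RA_4d, 198 CPM in control_7d and 233 CPM in RA_7d. Both RA libraries were above both controls, by 1.19 (1.13 to 1.26) at 4 dpf and 1.18 (1.12 to 1.24) at 7 dpf. Venular-like and arterial-like cells had 263 to 311 CPM and 250 to 334 CPM, and tip-like cells 107 to 188 CPM. Lymphatic endothelial-like cells had 116 CPM, 79.0 CPM, 53.7 CPM and 126 CPM in the same order of libraries.

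Fibroblast precursor-like cells carried *Tek* as well, at 95.1 CPM in control_4d, 84.5 CPM in RA_4d, 54.0 CPM in control_7d and 143 CPM in RA_7d. RA_7d was the high library and control_7d the low one, with a ratio of 2.64 (2.41 to 2.91) at 7 dpf and 0.89 (0.75 to 1.05) at 4 dpf. *Cdh5* was at 1.7 to 4.3 CPM in these cells and the 6 blood endothelial markers together at 34.7 to 45.8 CPM. In those without a UMI of any of the 6 markers (873 of 1406 cells) *Tek* was 84.8 CPM, 56.8 CPM, 44.1 CPM and 131 CPM in the same order. The share of cells with a *Tek* UMI after thinning was 30.2%, 16.9%, 15.1% and 33.4%, against 0.19% to 0.39% in macrophage-like cells. Without thinning it was 72.4%, 51.9%, 40.5% and 69.4%, and 0.75% to 1.23% in macrophage-like cells, at median depths of 24402 to 33649 and 10764 to 14040 UMIs.

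Muscle-like cells had *Tek* at 22.0 CPM in control_4d, 47.9 CPM in RA_4d, 19.5 CPM in control_7d and 50.4 CPM in RA_7d. Both RA libraries were above both controls, at ratios of 2.17 (1.65 to 2.86) and 2.59 (2.02 to 3.35). In muscle-like cells without an endothelial marker UMI the levels were 22.9 CPM, 52.4 CPM, 22.8 CPM and 49.6 CPM. The muscle-like class scored 4.10 for muscle stem and 3.54 for differentiating muscle markers, with 2 of each among its top 10 genes. Whether the mix of these cells differed between libraries was not tested. Fibroblast-like cells had 16.1 CPM in RA_4d and 35.0 to 36.2 CPM in the other libraries.

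The 10 genes were then compared with all genes within blood endothelial-like cells and within mesenchymal cells, counting those with a log2 ratio of at least 1 in size (2-fold, with a pseudocount of 1 CPM) among genes for which the 2 libraries together held 50 UMIs or more. In blood endothelial-like cells 0 of 9 genes passed from control to RA at 4 dpf, where 0.984% of 12396 genes did, and 1 of 9, *Pgf*, was lower in RA at 7 dpf, where 1.97% of 13029 genes passed. From 4 to 7 dpf 1 of 9, again *Pgf*, was higher in control (1.35% of all genes passed) and 0 of 9 in RA (2.1%). Over the members the RA-to-control log2 ratio had a median of 0.02 at 4 dpf and 0.13 at 7 dpf, beside 0.0079 and 0.0059 over all genes. *Angpt1* had too few UMIs here.

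In mesenchymal cells 1 of 8 genes, *Tek*, was lower in RA at 4 dpf (1.72% of all genes passed) and 1 of 10, *Tek* again, higher in RA at 7 dpf (2.56%). Its levels were 34.0 CPM in control_4d, 16.3 CPM in RA_4d, 19.0 CPM in control_7d and 44.8 CPM in RA_7d. From 4 to 7 dpf 0 of 10 passed in control (3.33%) and 2 of 10, *Kdr* and *Tek*, were higher in RA (2.94%). *Kdr* stood there at 0.88 CPM and 3.51 CPM. Both values lay below its 4.91 to 5.45 CPM in macrophage-like cells, the class taken above as background from free RNA. *Angpt2* was as low, at 0.93 CPM in control_4d, 2.43 CPM in RA_4d, 2.55 CPM in control_7d and 3.26 CPM in RA_7d, and the pseudocount kept it under 2-fold, since its ratio without one was 2.61 (1.64 to 4.26) for RA to control at 4 dpf and 2.74 (1.84 to 4.23) for 7 to 4 dpf in control. For that comparison in control the ratios of *Kdr* and *Flt4*, at 2.14 CPM and 1.26 CPM in control_7d, were likewise above 2 without it, at 2.39 (1.59 to 3.73) and 2.36 (1.39 to 4.29). With the mesenchymal classes weighted equally the log2 ratio of *Tek* between RA and control was −0.35 at 4 dpf and 0.34 at 7 dpf, in place of −1.01 and 1.20, and no longer 2-fold. Fibroblast precursor-like cells, the class with most *Tek*, numbered 192 in control_4d, 77 in RA_4d, 370 in control_7d and 767 in RA_7d.

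**Figure D5:**
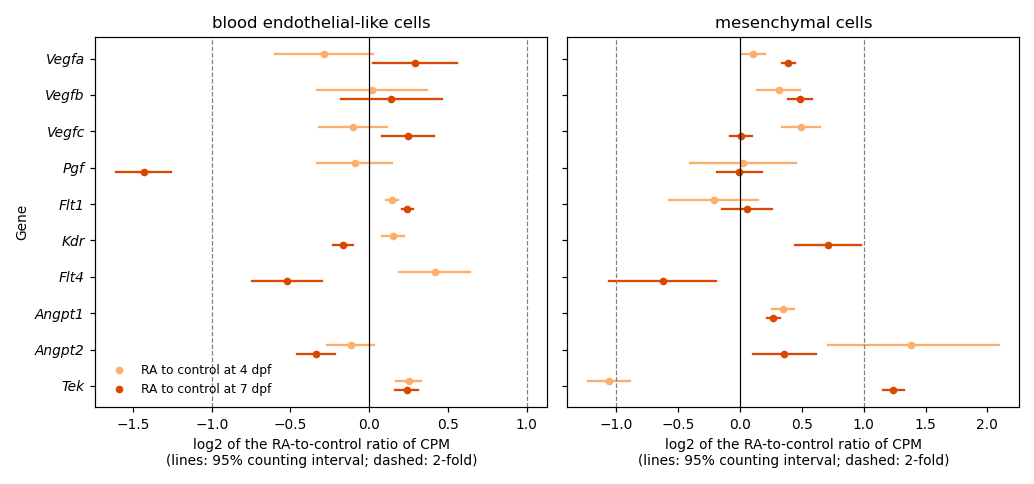
Log2 of the RA-to-control ratio of CPM, taken without a pseudocount (horizontal axis), for each gene (vertical axis) in blood endothelial-like cells (left) and mesenchymal cells (right), at 4 dpf in light and 7 dpf in dark orange. Lines are 95% counting intervals, dashed lines mark 2-fold, and genes under 50 UMIs are left out. *Pgf* lies at a ratio of 0.37 in blood endothelial-like cells at 7 dpf, *Tek* changes side in mesenchymal cells, and *Angpt2* lies past 2-fold in mesenchymal cells at 4 dpf (28 UMIs in control_4d and 58 in RA_4d).

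Within single cell types other than the macrophage-like class 68 ratios of RA to control at 4 dpf and 95 at 7 dpf rested on at least 50 UMIs, and the counting interval left out 1 in 32 and 48 of them. For 63 pairs of gene and cell type both times could be read, and in 16 both intervals left out 1. RA was higher at both times in 8 of these, lower at both in 1 (*Pgf* in fibroblast-like cells), and on opposite sides in 7. All these counts are of the member genes only. The share of all genes that would pass by the same rule is not given, so these counts are not weighed against all genes. The comparisons of RA with control and of 7 with 4 dpf share libraries.

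Of the other genes of both systems, a list of 10, 7 could be read in blood endothelial-like cells. In the 4 comparisons 0 passed 2-fold, where 0.984% to 2.1% of all genes did. From control to RA 6 of the 7 were higher at each time. The 7 log2 ratios had a median of 0.19 (4 dpf) and 0.25 (7 dpf), beside 0.0079 and 0.0059 over all genes. Some of the 6 barely moved, such as *Nrp1* at 4 dpf (195 to 196 CPM) and *Tie1* at 7 dpf (190 to 194 CPM). The share of all genes that were higher in RA is not given, so the count of 6 is not weighed against them. The co-receptor gene *Nrp2*, whose product binds VEGF-C, was 337 CPM in control_4d, 419 CPM in RA_4d, 329 CPM in control_7d and 459 CPM in RA_7d, and the phosphatase gene *Ptprb*, whose product dampens Tie2, 625 CPM, 712 CPM, 581 CPM and 892 CPM. For both genes the RA libraries were above the controls. *Tie1*, the orphan partner of Tie2, was 190 to 248 CPM, the co-receptor gene *Nrp1* 195 to 214 CPM and the semaphorin receptor gene *Plxnd1* 221 to 264 CPM. *Adamts3*, a protease gene of VEGF-C processing, was 4.01 to 5.67 CPM and *Vegfd* 1.88 to 2.74 CPM. *Angpt4*, *Ccbe1* and *Svep1* were too low to read there.

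In mesenchymal cells 1 of the 10, *Vegfd*, was higher in RA at 7 dpf, where 2.56% of all genes passed 2-fold, and it was lower at 7 than at 4 dpf in control, where 3.33% did. *Vegfd*, a further ligand of VEGFR3, was 58.8 CPM in control_4d, 71.4 CPM in RA_4d, 19.5 CPM in control_7d and 58.3 CPM in RA_7d. Control_7d was the low library, and this held in fibroblast precursor-like cells (129, 177, 61.0 and 117 CPM) and fibroblast-like cells (67.1, 107, 25.5 and 68.4 CPM). *Ccbe1*, whose product assists *Adamts3* in activating VEGF-C, was 64.4 to 128 CPM and highest in RA_4d, *Adamts3* 37.1 to 72.4 CPM and highest in control_7d, and *Svep1*, an extracellular matrix gene of lymphatic growth, 115 to 182 CPM and higher in RA than in control at both times. *Nrp1* was 117 to 161 CPM, *Nrp2* 73.6 to 109 CPM and *Plxnd1* 23.8 to 43.5 CPM. *Ptprb*, *Angpt4* and *Tie1* were at most 5.41 CPM.

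Of a list of 16 genes known as VEGF responses or tip cell genes, 10 were lower and 6 higher in the blood endothelial-like cells of RA at 7 dpf, with a median log2 ratio of −0.52 beside 0.0059 over all genes. Past 2-fold were 4, all of them lower (*Esm1*, *Apln*, *Adm* and *Kcne3*), where 1.97% of all genes passed. At 4 dpf 12 were lower and 4 higher, 1 was past 2-fold (*Esm1*, lower, with 0.984% of all genes passing), and the median was −0.22. *Esm1*, a gene of sprouting tip cells, was 47.5 CPM in control_4d, 12.0 CPM in RA_4d, 40.4 CPM in control_7d and 9.13 CPM in RA_7d, with both RA libraries below both controls. Inside tip-like cells *Esm1* was 229 CPM, 39.8 CPM, 106 CPM and 27.8 CPM in the same order. *Apln*, the ligand of the apelin receptor, was 74.5 CPM, 62.3 CPM, 119 CPM and 47.3 CPM, and *Adm*, the gene of the vasodilator adrenomedullin, 32.6 CPM, 28.3 CPM, 65.2 CPM and 28.8 CPM. *Apln* and *Adm* thus had control_7d as their high library, as did *Pgf*. From 4 to 7 dpf 0 of the 16 passed in either condition, where 1.35% (control) and 2.1% (RA) of all genes did. The list includes all markers that named the tip-like subtype (*Esm1*, *Apln*, *Pdgfb*, *Kcne3*, *Cxcr4*, *Nid2* and *Dll4*). *Esm1* in tip-like cells was thus read in a subtype that it helped to name.

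The genes of this list with most UMIs did not share one direction. *Plvap*, which encodes the diaphragm protein of fenestrated vessels, was 936 CPM in control_4d, 926 CPM in RA_4d, 766 CPM in control_7d and 958 CPM in RA_7d, and the apelin receptor gene *Aplnr* 246 CPM, 367 CPM, 267 CPM and 293 CPM. *Mcam* was 248 CPM, 254 CPM, 276 CPM and 210 CPM, and *Pdgfb*, the ligand that recruits pericytes, 181 CPM, 148 CPM, 167 CPM and 123 CPM. *Rcan1*, *Nr4a1* and *Egr3*, genes that VEGF induces, were higher in RA_7d than in control_7d. *Rcan1* was 89.4 CPM, 89.9 CPM, 83.1 CPM and 123 CPM in the same order of libraries. *Nr4a1* was 83.4 CPM, 74.0 CPM, 81.4 CPM and 109 CPM, and *Egr3* 12.2 CPM, 9.69 CPM, 12.7 CPM and 14.4 CPM. *Nr4a1* and *Egr3* were thus lower in RA_4d than in control_4d, with overlapping counting intervals. The remaining gene higher in RA_7d than in control_7d was *Ramp3*, at 3.40 against 2.85 CPM. It too was lower in RA_4d than in control_4d, at 1.98 against 2.76 CPM, with overlapping intervals. For *Egr3* and *Ramp3* the intervals of RA_7d and control_7d also overlapped.

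In mesenchymal cells the same list had 1 of 13 genes past 2-fold from control to RA at 4 dpf (*Aplnr*, higher, on 65 UMIs), where 1.72% of all genes passed, and 0 of 15 at 7 dpf, where 2.56% did. From 4 to 7 dpf *Unc5b* was higher and *Adm* lower in control (2 of 14, beside 3.33%), and *Apln* was lower in RA (1 of 14, beside 2.94%).

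Of 12 hypoxia-inducible genes, 0 of 11 passed 2-fold in blood endothelial-like cells in any comparison, where 0.984% to 2.1% of all genes did. In mesenchymal cells 0 of 12 passed from control to RA at 4 dpf, where 1.72% of all genes did. There 9 were higher and 3 lower in RA, with a median log2 ratio of 0.13 beside 0.04 over all genes. At 7 dpf 9 were lower and 3 higher, with a median log2 ratio of −0.56 beside −0.03 over all genes, and 1 was past 2-fold (*Pgk1*, a glycolytic enzyme, lower), where 2.56% of all genes passed. *Pgk1* was 181 CPM in control_4d, 200.2 CPM in RA_4d, 205 CPM in control_7d and 92.8 CPM in RA_7d, and *Ldha*, which encodes lactate dehydrogenase, 340 CPM, 303 CPM, 333 CPM and 179 CPM. *Pgk1* was also the 1 gene of the 12 past 2-fold from 4 to 7 dpf in RA, where it was lower and 2.94% of all genes passed. In control 0 passed, where 3.33% of all genes did. By direction 11 were lower and 1 higher at 7 than at 4 dpf in RA, with a median of −0.48 beside −0.0043 over all genes. In control 8 were higher and 4 lower, with a median of 0.14 beside 0.084. *P4ha1*, a collagen hydroxylase gene, was 134 CPM, 139 CPM, 164 CPM and 126 CPM. The 3 genes higher in RA than in control at 7 dpf were *Hk2*, which encodes a hexokinase (158 CPM, 186 CPM, 116 CPM and 180 CPM), *Ndrg1* (109 CPM, 95.5 CPM, 61.7 CPM and 95.7 CPM) and *Mxi1* (75.2 CPM, 83.8 CPM, 78.4 CPM and 82.8 CPM). *Vegfa*, itself hypoxia-inducible, was at 65.4 CPM, 70.3 CPM, 54.1 CPM and 70.9 CPM in the same order, so that it lay with the 3 higher genes at 7 dpf.

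Genes with a like pattern were ranked by the Pearson correlation of log2(CPM + 1) over 66 pairs of cell type and library with at least 20 cells, among 14761 genes. The points share 4 libraries and the same cell types, so the coefficients are descriptions. *Kdr* was nearest to *Tie1* (0.94), *Myct1* (0.93) and *Robo4* (0.93), and *Flt4* to *Clca2*, *Sgsm1* and *Nts* (0.94 each). *Flt1* was nearest to *Fabp4* (0.90), *Esam* (0.89) and *Tcf15* (0.85), and *Tek* to *Ramp2* (0.91), *Unc45b* (0.89) and *Cavin2* (0.86). *Angpt2* was nearest to *Pcdh12* (0.90), *Arhgef7* (0.89) and *Apold1* (0.87), and *Angpt1* to *Tbx15* (0.88), *Hebp2* (0.86) and *Prrx1* (0.86). The VEGF family ligands had weaker neighbours. For *Vegfa* they were *B4galt1* (0.71), *Nptn* (0.64) and *Gm12840* (0.63), and for *Vegfc* *Smco4* (0.71) and *Zfp827* (0.69). For *Vegfb* they were *Mmut* (0.80), *Dip2c* (0.79) and *Wdpcp* (0.79), and for *Pgf* *Arhgef7*, *Nectin2* and *Gm35721* (0.76 each). Among the 10 genes themselves the coefficient was highest for *Kdr* and *Flt4* (0.84) and lowest for *Kdr* and *Angpt1* (−0.52).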

How the data were processed

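Single-cell RNA-seq (10x Chromium 3′ v3.1) was performed on callus cells in 4 libraries. The deposited tables hold raw UMI counts per gene and barcode, produced by the authors through Cell Ranger 7.0.1 on mm10, keeping barcodes called as cells, with no scaling between libraries. UMI totals of the kept cells were 83405494 to 156567619 a library.

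Cells were kept by the study's limits (between 4000 and 50000 UMIs and between 2000 and 7000 features, with mitochondrial UMIs of 8% or less). Libraries were integrated by canonical correlation (30 dimensions, 2000 variable genes without the 10 members, of which 7 would otherwise have been among them) and clustered on 15 principal components with the Louvain algorithm at resolution 0.5 in Seurat 5.3.0 (R 4.3.3). A cluster took a name when its markers scored at least 1 on the log2 scale over all other cells, led the next name by 0.5 and included 3 detected markers (at least 20 CPM). These thresholds were set with the clusters in view, and a rebuilt class need not hold the cells of the study's cluster of that name. Doublets (Scrublet in scanpy 1.11.5, 592 cells, 2.32%) were kept, and left out as an alternative.

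UMIs were summed per cell type and library using pandas 2.3.3, scipy 1.17.1 and numpy 2.4.6 (Python 3.11.15). Levels have exact Poisson intervals, shares exact Clopper-Pearson intervals and ratios of levels exact conditional intervals. Log2 ratios used a pseudocount of 1 CPM, and a gene was read where the libraries compared held 50 UMIs or more together. Promoters came from RefSeq and gene overlaps from the GENCODE annotation of GRCm38.

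Named genes are the 10 members, the 3 genes nearest to each in pattern among those with at least 500 UMIs, all genes of a list of other genes of both systems, and, of a list of VEGF-responsive or tip cell genes and a list of hypoxia-inducible genes, those past 2-fold and up to 4 with the most UMIs. Marker genes, leading genes of clusters, and the genes of both lists that stood higher in RA at 7 dpf were picked once their values had been seen. The level of a class was compared between groups only if none of its clusters had more markers of another class than of its own among its top 10 genes. A further gene near *Vegfc* in pattern is not reported here. The members and lists were chosen with earlier results of these data known. Alternatives were a looser cell filter, no integration, resolution 1, members among the variable genes, doublets left out, TMM scaling, a pseudocount of 10 CPM, a minimum of 10 UMIs, thinned cells and equal weights for cell types or subtypes. Leaving out the endothelial clusters with genes of other cell types, and equal weights for mesenchymal classes, were added after seeing the data. Levels in cells without endothelial marker UMIs were also added then. Other experiments of the study were not analysed here.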

Additional observations from a re-analysis of the deposited data

Results flagged for a closer look

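With 2 conditions and 2 time points, a gene and cell type are listed here when the ratio between libraries lay on opposite sides of 1 in 2 matched comparisons and neither 95% counting interval held 1. Each comparison is 1 library against 1, so the difference between the ratios was not tested, and the RA-to-control and the 7-to-4 dpf ratios of a gene rest on the same 4 libraries.

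In blood endothelial-like cells *Kdr* had RA-to-control ratios of 1.11 at 4 dpf and 0.892 at 7 dpf, and 7-to-4 dpf ratios of 1.13 in control and 0.909 in RA. *Flt4* had 1.33 and 0.696 for RA to control, and 1.18 and 0.617 over time.

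In fibroblast precursor-like cells *Vegfc* had RA-to-control ratios of 5.90 at 4 dpf and 0.349 at 7 dpf, and 7-to-4 dpf ratios of 5.09 in control and 0.301 in RA. *Tek* had 7-to-4 dpf ratios of 0.568 in control and 1.69 in RA there, and 0.623 and 1.93 in mesenchymal progenitor-like cells.

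Lymphatic endothelial-like cells, with 31 and 34 cells at 4 dpf, showed opposite 7-to-4 dpf ratios for 3 genes. They were 0.810 in control and 1.18 in RA for *Flt4*, 1.41 and 0.740 for *Angpt2*, and 0.463 and 1.60 for *Tek*.

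In pericyte or smooth muscle-like cells *Pgf* had RA-to-control ratios of 1.63 at 4 dpf and 0.735 at 7 dpf, and 7-to-4 dpf ratios of 1.29 in control and 0.583 in RA. *Flt1* had 0.659 and 1.13 for RA to control, and 0.776 and 1.33 over time.

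In neutrophil-like cells *Flt1* had RA-to-control ratios of 0.528 and 1.64 and *Tek* 0.301 and 1.72. The endothelial marker *Cdh5* moved with both, at 102 CPM in control_4d, 39.6 CPM in RA_4d, 167 CPM in control_7d and 214 CPM in RA_7d, and neutrophil-like cells without endothelial marker UMIs had *Flt1* at 7.02 CPM and *Tek* at 1.10 CPM.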

How the results depend on the processing

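No paired analysis was possible because each group is 1 library and the labels carry no replicate number to pair. Of 52 ratios of a member whose counting interval left out 1 (23 in blood endothelial-like and 29 in mesenchymal cells), all kept their direction without integration, with members among the variable genes, without doublets, with TMM scaling and with a pseudocount of 10 CPM, 51 at resolution 1 and 48 with the looser cell filter. The 23 endothelial ones kept it without the clusters that carry genes of other cell types, and 22 with subtypes weighted equally. Of the 29 mesenchymal ones 26 kept it with classes weighted equally. Those that turned were *Vegfc* in blood endothelial-like cells at 7 dpf (RA to control, −0.20 with subtypes weighted equally), *Kdr* and *Angpt2* in mesenchymal cells at 7 dpf (−0.16 and −0.37 with classes weighted equally), and, over time, *Flt4* in control and *Angpt2* in RA in blood endothelial-like cells (−0.02 and −0.13, looser filter), *Vegfb* and *Angpt1* in control mesenchymal cells (0.02 and 0.01, looser filter) and *Flt1* in control mesenchymal cells (0.19 at resolution 1, 0.04 with classes weighted equally). The cause was not tested.

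*Pgf* in blood endothelial-like cells at 7 dpf ranged from −1.44 to −1.14 on the log2 scale over the alternatives. The count of members past 2-fold changed as follows. The share of all genes past 2-fold under each alternative is not given beside it, so these counts are not weighed against all genes. In blood endothelial-like cells it was 2 in place of 1 for RA to control at 7 dpf without integration, and 1 in place of 0 from 4 to 7 dpf in RA without integration or with the looser filter. In mesenchymal cells it was 0 in place of 1 for RA to control at 4 dpf with the looser filter, no integration, resolution 1, a pseudocount of 10 CPM or equal class weights, and 0 in place of 1 at 7 dpf with that pseudocount or equal weights. From 4 to 7 dpf it was 1 in place of 0 in control with equal weights, and in RA 1 in place of 2 with the looser filter or that pseudocount and 0 with equal weights. With every cell type weighted equally, 9.8% to 13.2% of the summed *Vegfa* level was in T or natural killer-like cells. Depth limits *Angpt1* in blood endothelial-like cells and the lymphatic and chondrogenic-like classes at 4 dpf.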
